A study of Mus musculus with 52 samples.

Results

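Aminoacyl-tRNA synthetases were described across 52 libraries of gastrocnemius muscle, the large calf muscle, from aged mice. The genes were chosen by name: a protein-coding mouse symbol made of the letter of an amino acid followed by ars, alone or with 1, 2 or l, or one of Farsa, Farsb, Fars2, Eprs, Ears2 and Pars2. The rule used no measured value, and it found 37 of the 55487 genes in the table of counts, 20 for the cytosolic enzymes and 17 for the mitochondrial enzymes. All 37 passed the filter on low counts and were tested.

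The study followed male C57BL/6 mice of 22 to 24 months through hindlimb unloading (HU), in which the hind legs bear no weight, and through reloading of the legs for 7 d (RL7) or 14 d (RL14) after unloading. At each of these times, mice drank metformin plus leucine (ML), metformin alone (M), leucine alone (L) or plain water (W), and an ambulatory group on plain water (AMB_W) was never unloaded. This gives 13 groups of 4 libraries of total RNA, named by time and drink, so that RL14_M stands for 14 d of reloading with metformin. No group carries an engineered allele, all mice were old males of 1 strain, and neither the length of unloading nor the doses are used here. Libraries are named by group and by the replicate number of the title, and each was taken as 1 mouse. Nothing in the labels says whether the samples of a group were prepared apart, so p-values measure the spread between these samples.

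Each synthetase joins an amino acid to its transfer RNA, and the charged transfer RNA then delivers that amino acid to the ribosome. Most amino acids have a pair of enzymes, both encoded in the nucleus: the cytosolic form serves the ribosomes that make most muscle proteins, and the mitochondrial form is imported to serve the few proteins that mitochondria make themselves. Kars and Gars serve both places, and Eprs charges glutamate and proline with 1 polypeptide. Several cytosolic enzymes, Eprs, Iars, Lars, Mars, Qars, Rars, Kars and Dars, are held in a multisynthetase complex with the scaffold proteins Aimp1, Aimp2 and Eef1e1. Many cytosolic synthetase genes are targets of ATF4, a transcription factor switched on by amino acid shortage and other stress, Wars is induced by interferon, and Lars has been described as a leucine sensor for mTORC1.

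Totals ran from 15605044 to 32492548 counts per library. Muscle fibre markers dominated every group, with a summed level of 70440 to 116600 CPM in the 52 libraries. Some libraries stood apart: the liver gene Alb passed 16 CPM in 12 of them, adipocyte markers summed to 696.6 CPM in RL7_M 4, and RL14_ML 1 and RL14_ML 6 held the most ribosomal RNA of the gene CT010467.1. The gene n-R5-8s1 for 5.8S ribosomal RNA, a target of the depletion step, differed between groups. Its level averaged 11.4 CPM in the 16 HU libraries, 2.11 CPM in the 16 RL7 libraries and 15.7 CPM in the 16 RL14 libraries. Groups of the same time differed too. RL14_W averaged 0.718 CPM, and the other RL14 groups 18.4 to 24.4 CPM. RL7_W averaged 4.99 CPM, and the other RL7 groups 0.771 to 1.76 CPM. Among the HU groups the means ran from 4.76 CPM in HU_ML to 19.8 CPM in HU_L. Its part in the results below was not tested beyond the fits that carry it as a covariate, whose values stand beside the results. Because this level differed between groups, those fits cannot fully tell it apart from the groups.

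Levels are given as CPM, the count relative to a library size scaled by TMM factors, and levels of different genes are compared as CPM per kb of exon. On that scale Lars2, the mitochondrial leucine enzyme, was highest with a mean of 25.0 CPM per kb over the 52 libraries, a level that ran beside that of a ribosomal RNA gene as given further on. The cytosolic genes Nars, Iars and Eprs followed with 16.7, 14.9 and 14.4 CPM per kb, for the enzymes of asparagine, isoleucine, and glutamate with proline. Pars2, the mitochondrial proline enzyme, was lowest with 0.431 CPM per kb and 5 to 53 counts per library. The ranks 2 to 17 were all held by cytosolic genes, and the 14 lowest by mitochondrial genes. Below Lars2, the highest mitochondrial genes were Iars2 with 4.97 and Rars2 with 4.69 CPM per kb, above the 3.84, 3.75, 3.13 and 2.28 CPM per kb of the cytosolic Cars, Vars, Yars and Farsa.

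Some of these genes share exon sequence with a neighbour, and no source used here gives the strand setting of the counting, which leaves their values uncertain. The share of exon length that overlaps a gene on the other strand was 22.9% for Iars2 (with Rab3gap2), 9.47% for Farsb, 8.72% for Fars2, 8.52% for Vars2 and 5.83% for Cars2. Hars and Hars2 overlap each other, over 7.97% and 4.56% of their exon length, and Aars shares 14.3% with Exosc6 on its own strand.

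An F test over all 13 groups called 20 of the 37 genes (edgeR quasi-likelihood, Benjamini-Hochberg adjusted p under 0.05 over 16668 genes), 10 of 20 cytosolic and 10 of 17 mitochondrial. The share was 54.1% of these genes, against 40% of all genes tested. The smallest adjusted p among the mitochondrial genes was 3.55e-05, and among the cytosolic genes 0.00338.

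What 7 d of reloading did to these genes, averaged over the 4 drinks, was asked with the RL7 libraries against the HU libraries, 16 in each. Most calls were higher among mitochondrial enzymes and lower among cytosolic enzymes. Of the 17 mitochondrial genes, 12 rose, 1 fell and 4 did not pass the test, with a median log2 fold change of 0.26. Of the 20 cytosolic genes, 1 rose, 7 fell and 12 did not pass, with a median of -0.07. The median over all 16668 genes was 0.05. As 1 group the genes were called about as often as others, 21 of 37 or 56.8% against 52.7% of all genes, of which 29.2% rose and 23.5% fell. In whole muscle, fewer cells of a type and less RNA per cell cannot be told apart.

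**Figure D1:**
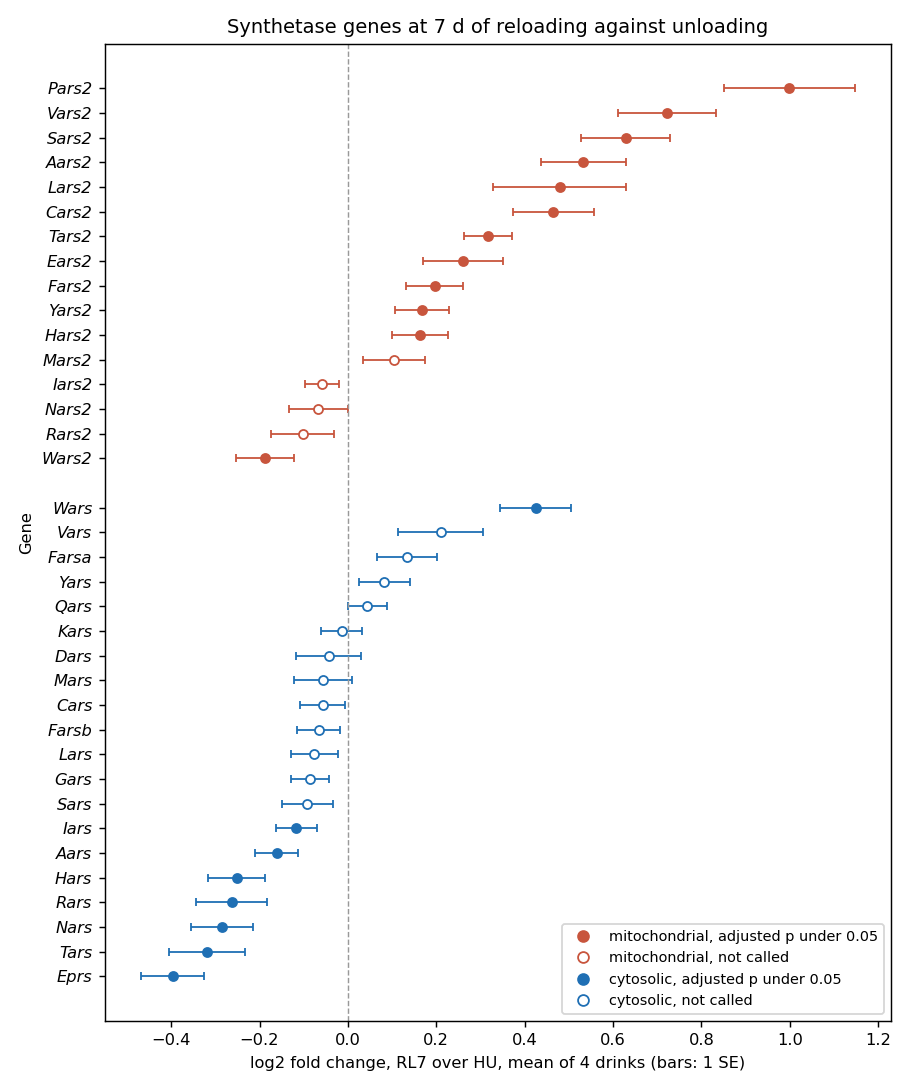
Log2 fold change of 36 synthetase genes at 7 d of reloading over unloading, averaged over 4 drinks (x axis; 16 libraries each; bars 1 SE; filled points have an adjusted p under 0.05). Of those plotted, 11 of 16 mitochondrial genes (red, upper block) are filled and right of 0, and 7 of 20 cytosolic genes (blue, lower block) are filled and left of 0.

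Pars2 (ENSMUSG00000043572, chromosome 4, 106651069 to 106655282, GRCm38) showed the highest fold change. Its lowest, median and highest values were 1.10, 1.74 and 2.32 CPM in RL7 libraries, against 0.369, 0.747 and 1.65 CPM in HU libraries. The ranges overlapped, and 12 of 16 RL7 libraries lay above every HU library. The log2 fold change was 1.00 ± 0.15 (SE; adjusted p = 4.08e-07), a level 2.00-fold higher.

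Vars2, the mitochondrial valine enzyme (ENSMUSG00000038838, chromosome 17, 35655634 to 35667592), had a lowest, median and highest level of 4.87, 6.15 and 8.37 CPM in RL7 libraries, against 2.31, 3.80 and 5.62 CPM in HU libraries. Here too 12 of 16 RL7 libraries lay above every HU library (log2 fold change 0.72 ± 0.11, adjusted p = 7.59e-07). Sars2, the mitochondrial serine enzyme, had 4.52, 7.10 and 8.72 CPM in RL7 libraries, against 3.32, 4.53 and 6.2 CPM in HU libraries. All but 2 of its RL7 libraries exceeded the whole HU range (log2 fold change 0.63 ± 0.10, adjusted p = 1.64e-06).

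Tars2, the mitochondrial threonine enzyme, had 14.6, 16.1 and 18.6 CPM in RL7 libraries, against 11.01, 12.8 and 17.3 CPM in HU libraries (log2 fold change 0.32 ± 0.05, adjusted p = 4.78e-06). One high HU library covered most of its RL7 range, so only 3 RL7 libraries lay above all HU libraries. Aars2 for alanine had 5.55, 9.30 and 12.5 CPM in RL7 libraries, against 4.73, 5.89 and 9.18 CPM in HU libraries (log2 fold change 0.53 ± 0.10, adjusted p = 1.05e-05), and 8 of 16 RL7 libraries exceeded the HU range.

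Others among the mitochondrial genes that rose were Cars2, Lars2, Ears2, Fars2, Yars2 and Hars2, the enzymes of cysteine, leucine, glutamate, phenylalanine, tyrosine and histidine, with log2 fold changes between 0.16 for Hars2 and 0.48 for Lars2. Wars2, the mitochondrial tryptophan enzyme, was the 1 that fell, by 0.19 on the log2 scale (SE 0.07, adjusted p = 0.0151). Mars2, Iars2, Nars2 and Rars2 did not pass the test, with log2 fold changes from -0.10 to 0.10. Hars2 and Yars2 were called by a narrow margin: leaving out 1 library ended the call of Hars2 for 20 of 32 libraries, and that of Yars2 for 7 of 32.

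Among the cytosolic genes, Eprs (ENSMUSG00000026615, chromosome 1, 185363044 to 185428360) fell most. Its lowest, median and highest levels were 136, 222 and 270 CPM in RL7 libraries, against 251.0, 285 and 339 CPM in HU libraries. The groups overlapped, with 13 of 16 RL7 libraries below every HU library. The log2 fold change was -0.40 ± 0.07 (adjusted p = 1.28e-05), and it was 1.32-fold lower.

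Nars, for asparagine, had 46.1, 66.1 and 85 CPM in RL7 libraries, against 67.3, 80.6 and 92.3 CPM in HU libraries (log2 fold change -0.28 ± 0.07, adjusted p = 6.15e-04). Tars (threonine), Rars (arginine), Hars (histidine), Aars (alanine) and Iars (isoleucine) also fell, with log2 fold changes between -0.32 for Tars and -0.12 for Iars. The call of Iars was lost without HU_M 2 (adjusted p = 0.0549). Of the 8 enzymes of the multisynthetase complex 3 fell and 0 rose, with a median of -0.07, and of the 12 other cytosolic enzymes 4 fell and 1 rose, with a median of -0.08. Over all genes 23.5% fell and 29.2% rose. Of the 3 scaffold genes, Aimp2 rose (log2 fold change 0.19, adjusted p = 0.0364) and Aimp1 fell (-0.24, adjusted p = 0.0438).

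Wars, the cytosolic tryptophan enzyme (ENSMUSG00000021266, chromosome 12, 108860030 to 108894174), was the 1 cytosolic gene that rose. Its lowest, median and highest levels were 17.7, 19.7 and 22.95 CPM in RL7 libraries, against 12.8, 14.4 and 18.2 CPM in HU libraries. All but 2 RL7 libraries lay above every HU library (log2 fold change 0.42 ± 0.08, adjusted p = 2.73e-05). Interferon genes moved with it: 9 of 13 listed genes rose and 0 fell, with a median log2 fold change of 0.74, among them Ifi27 at 0.86 (adjusted p = 1.86e-08) and Irf1 at 0.64 (adjusted p = 3.90e-06). Their summed level ranged from 40.3 to 72.0 CPM in RL7 libraries, against 22.4 to 52.8 CPM in HU libraries. Over all genes 29.2% rose, and the part of the interferon genes in the rise of Wars was not tested.

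The same 2 groups of genes were also set against each other in each library. Each gene was set on the log2 scale against its own mean over the 52 libraries, with 0.1 CPM added, and the median of the 17 mitochondrial genes less the median of the 20 cytosolic genes was taken in each library. This difference ranged from 0.03 to 0.38 in RL7 libraries, against -0.35 to 0.005 in HU libraries, and the groups did not overlap. It was above 0 in 16 of 16 RL7 libraries and in 1 of 16 HU libraries. In AMB_W it was -0.15 to 0.05, and in RL14 libraries it spread from -0.14 to 0.44.

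**Figure D2:**
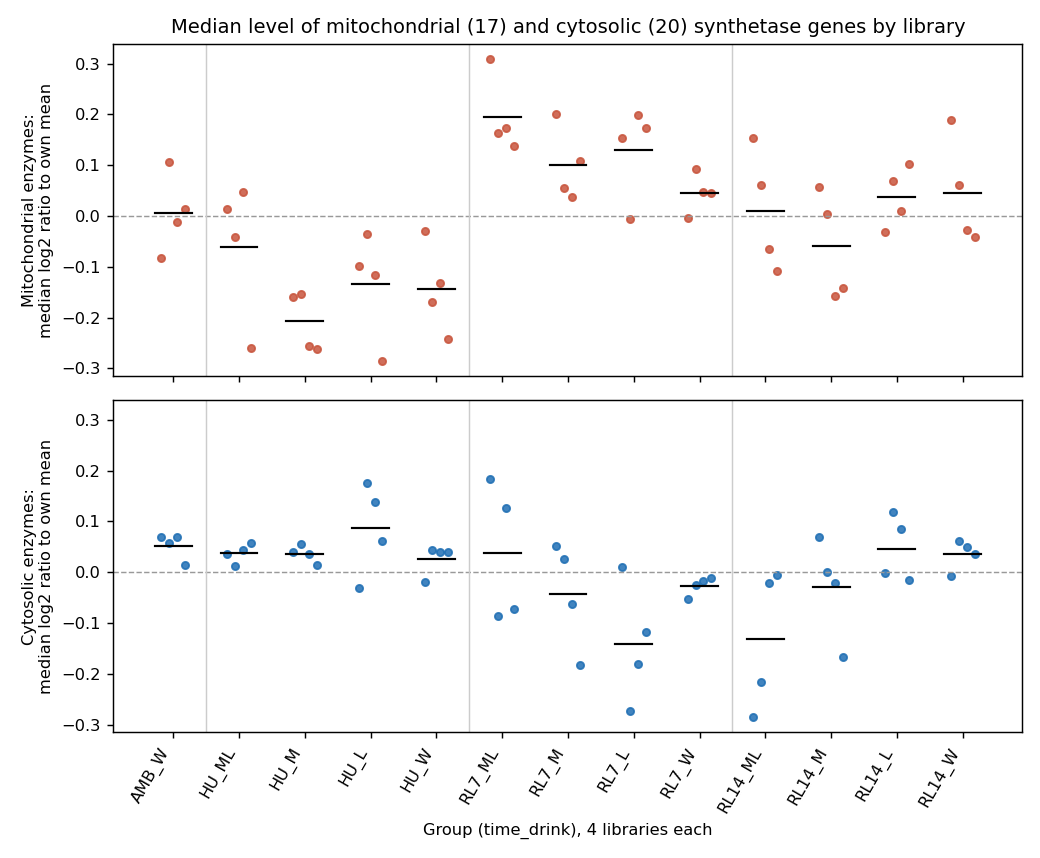
Median log2 ratio of the 17 mitochondrial genes (upper panel) and of the 20 cytosolic genes (lower panel) to their own means over 52 libraries, for each library (points) by group, with group means as bars. RL7 libraries average 0.12 for the mitochondrial genes, against -0.14 in HU libraries, and -0.04 for the cytosolic genes, against 0.05 in HU libraries.

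Within each drink, the called genes were found with metformin and with leucine alone. RL7_M against HU_M called 7 mitochondrial genes higher and 0 lower, and 1 cytosolic gene higher and 4 lower, 12 of 37 against 29.6% of all genes (15.4% higher and 14.2% lower). RL7_L against HU_L called 7 mitochondrial genes higher and 3 lower, and 1 cytosolic gene higher and 7 lower, 18 of 37 against 28.6% of all genes (14.7% higher and 13.9% lower). RL7_ML against HU_ML called 0 of 37 in edgeR, against 5.91% of all genes, with 7 at an unadjusted p under 0.05 (22.9% of all genes); DESeq2 called 0 and voom 5 (16.8% of all genes). RL7_W against HU_W also called 0, against 4.88% of all genes, with 5 at an unadjusted p under 0.05 (20% of all genes); voom called 5 (16.7% of all genes) and DESeq2 0. The mitochondrial median was positive in all 4 drinks, 0.26 with both, 0.37 with metformin, 0.34 with leucine and 0.21 with water. The cytosolic median was -0.001 with both, -0.09 with metformin, -0.23 with leucine and -0.09 with water. Whether the course differed between drinks was asked with the interaction test given further on, which called none of the 37 genes in edgeR.

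Fold changes of Pars2, Eprs and Vars2 are given drink by drink as a description. Pars2 had 1.71, 1.71, 1.85 and 1.96 CPM in RL7_L, against 0.685, 0.575, 0.682 and 0.369 CPM in HU_L. The RL7_L libraries were close together and far above the HU_L ones (log2 fold change 1.61 ± 0.31, adjusted p = 2.13e-04). Its log2 fold changes in the other drinks were 1.25 with metformin (adjusted p = 0.00189), 0.44 with both (adjusted p = 0.350) and 0.69 with water (adjusted p = 0.169). Eprs had 224, 187, 206 and 192 CPM in RL7_L, against 261.0, 318, 331 and 339 CPM in HU_L, with no overlap (log2 fold change -0.63 ± 0.14, adjusted p = 0.00145). Its log2 fold change was -0.56 with metformin (adjusted p = 0.00346), -0.21 with both (adjusted p = 0.401) and -0.20 with water (adjusted p = 0.464). Vars2 had log2 fold changes of 0.61 with both, 0.92 with metformin, 1.00 with leucine and 0.35 with water, and it passed with metformin and leucine.

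Other measures moved with RL7 against HU. Genes of the mitochondrial genome took a mean 9.80% of counts in RL7 libraries, against 15.2% in HU libraries. The 5.8S gene averaged 2.11 CPM in RL7 libraries, against 11.4 CPM in HU libraries, and with its level as a covariate 1 of 37 genes was called, a mitochondrial gene that was higher, against 2.84% of all genes. The median of the mitochondrial genes was then 0.35 and that of the cytosolic genes -0.01, with 16 of 17 and 9 of 20 genes positive. The 5.8S level was 0.379 to 7.39 CPM in RL7 libraries and 2.07 to 32.8 CPM in HU libraries. Its mean was lower in RL7 than in HU libraries with each drink. HU_ML averaged 4.76 CPM, close to the 4.99 CPM of RL7_W, so it did not follow time alone. That fit separates this level from the groups poorly. Without the 12 libraries with liver transcripts 15 of 37 genes were called, against 39.3% of all genes: 8 mitochondrial genes higher and 0 lower, and 1 cytosolic gene higher and 6 lower. In cell type markers, 7 of 8 for macrophages, 5 of 6 for endothelium, 5 of 6 for fibroblasts and 5 of 5 for adipocytes rose, and 4 of 4 for red blood cells fell. Of 8 muscle fibre markers 3 rose and 3 fell, and of 4 satellite cell markers 1 rose. Over all genes 29.2% rose and 23.5% fell. Macrophage markers summed to 41.1 to 216 CPM in RL7 libraries, against 27.4 to 106 CPM in HU libraries, and endothelium markers to 172 to 264 CPM, against 134 to 217 CPM. Fibroblast markers summed to 367 to 683 CPM in RL7 libraries, against 248 to 503 CPM in HU libraries, adipocyte markers to 12.2 to 697 CPM, against 1.62 to 65.2 CPM, and red blood cell markers to 4.71 to 28.3 CPM, against 6.15 to 166 CPM. No marker was at 0 over all 16 RL7 or all 16 HU libraries. The liver markers Ttr, Fgb and Serpina1c were at 0 over HU_M and over RL7_W, and Apoa1 over RL7_W. The part of these cells and of the mitochondrial share in the results was not tested.

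The base composition of the transcripts also moved with the fold changes. Over the 37 genes, the log2 fold change of RL7 against HU correlated with the GC content of the transcript (Pearson r = 0.58, Spearman rho = 0.60, across genes, which are not independent), and over 13368 genes with a GC value r was 0.42. GC content had nearly the same median in both compartments, 51.2% in mitochondrial genes and 50.95% in cytosolic genes, and single genes of both compartments lay far from it. The cytosolic Vars was highest at 60.6%, the mitochondrial Sars2, Aars2, Vars2 and Ears2 followed at 58.1% to 60.1%, and the mitochondrial Mars2 was lowest at 38.8%. With offsets that correct each library for GC content, 24 of 37 genes were called, against 50.4% of the genes with a GC value, the only ones in that fit. These were 11 mitochondrial genes higher and 1 lower, with a median of 0.20, and 1 cytosolic gene higher and 11 lower, with a median of -0.14. Under that correction the following log2 fold changes lay closer to 0 than without it: Sars2 had 0.27, Aars2 0.18, Vars2 0.40, Tars2 0.17, Pars2 0.78, Wars 0.30 and Eprs -0.32, all with an adjusted p under 0.05.

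**Figure D3:**
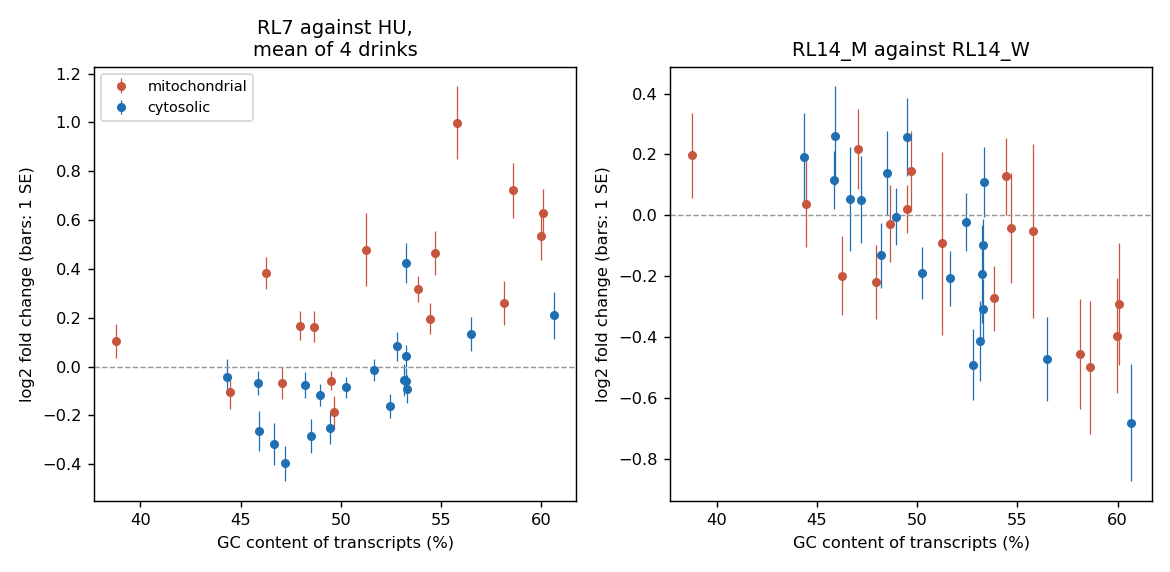
Log2 fold change of each synthetase gene (y axis, bars 1 SE) against the GC content of its transcripts (x axis, %), for RL7 against HU (left) and RL14_M against RL14_W (right). The points climb with GC content on the left (r = 0.58) and descend on the right (r = -0.72); mitochondrial genes are red and cytosolic genes blue.

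Genes that work beside the synthetases were described from lists. The counts for RL7 against HU stand beside 29.2% of all genes that rose and 23.5% that fell. Of 8 partners of mitochondrial charging and translation, 4 rose and 1 fell. The highest was Tufm, the mitochondrial elongation factor that carries charged transfer RNA, at 37.1 ± 4.22 CPM in RL7 libraries and 22.8 ± 3.38 CPM in HU libraries (SD, n = 16 each; log2 fold change 0.70 ± 0.07, adjusted p = 2.34e-11), followed by its exchange factor Tsfm (0.49, adjusted p = 1.97e-05). Gatc, a subunit of the enzyme that makes mitochondrial glutaminyl-tRNA, fell (-0.38, adjusted p = 2.13e-04). Of 6 cytosolic elongation factors 2 rose and 0 fell, the muscle form Eef1a2 most clearly (0.45, adjusted p = 3.63e-07). Of 9 partners of cytosolic charging 1 rose and 3 fell, with Aarsd1 higher (0.44, adjusted p = 0.0304) and Dtd2 and Trnt1 lower (-0.33 and -0.32, adjusted p = 0.00220 and 0.00297). Tarsl2, a further threonine enzyme that the naming rule leaves out, did not pass (log2 fold change -0.14, adjusted p = 0.118). Of 10 genes of leucine sensing, 1 rose and 5 fell: Sesn2, a leucine sensor, rose (0.68, adjusted p = 2.56e-04), and its relative Sesn1 fell (-0.63, adjusted p = 2.33e-07).

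Targets of ATF4 other than the synthetases did not move in 1 direction. Of 21 genes tested on this list, which holds Atf4 itself, 9 rose and 7 fell, with a median log2 fold change of 0.04. Over all genes 29.2% rose and 23.5% fell. Shmt2, a mitochondrial enzyme that converts serine to glycine, rose by 0.56 (adjusted p = 1.16e-06), and Psat1, an enzyme of serine synthesis, by 0.98 (adjusted p = 1.55e-04). Ddit4, an inhibitor of mTORC1, fell by 4.10 (adjusted p = 1.20e-16), Cebpb by 0.79 (adjusted p = 4.16e-06), Eif4ebp1, a repressor of translation, by 0.53 (adjusted p = 3.10e-05) and Atf4 itself by 0.18 (adjusted p = 0.0160).

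RefSeq promoters of 250 bases before to 50 bases after the start of the gene (GRCm38.p6) were matched to 27 of the 37 genes, 13 cytosolic and 14 mitochondrial. They were searched on both strands for TGATGNAA, the composite element that ATF4 binds with a C/EBP partner, since several of these genes are known ATF4 targets. It stood in 5 of 13 cytosolic promoters and in 0 of 14 mitochondrial ones, and 4.51% of 27025 genes held it. The 6 matches in these 5 promoters are printed below 5′ to 3′ along the strand of the gene, with the element, or its reverse complement, in capitals. Aars is at chr8:111033704-111033884 on the plus strand and holds 2 matches, Gars at chr6:55037945-55038004 (plus), Iars at chr13:49682111-49682170 (plus), Tars at chr15:11399640-11399699 (minus) and Yars at chr4:129189880-129189939 (plus).
Aars: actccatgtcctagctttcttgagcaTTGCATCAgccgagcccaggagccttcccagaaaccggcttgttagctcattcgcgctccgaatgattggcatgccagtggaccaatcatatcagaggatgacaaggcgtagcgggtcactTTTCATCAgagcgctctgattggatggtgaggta
Gars: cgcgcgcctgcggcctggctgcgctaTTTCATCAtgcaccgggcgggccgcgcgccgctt
Iars: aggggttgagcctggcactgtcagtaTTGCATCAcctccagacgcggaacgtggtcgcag
Tars: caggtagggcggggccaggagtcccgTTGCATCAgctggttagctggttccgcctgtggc
Yars: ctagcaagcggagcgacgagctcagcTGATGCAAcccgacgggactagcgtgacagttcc
In RL7 against HU, Aars, Iars and Tars of these 5 fell, and Gars and Yars did not pass (log2 fold changes -0.09 and 0.08, adjusted p = 0.0898 and 0.237). Eprs fell too and its promoter held no match; Nars, Hars and Rars also fell, and their promoters were not searched. A match describes letters and says nothing of binding in these muscles. A CCAAT box stood in 7 of 13 cytosolic and 6 of 14 mitochondrial promoters and in 41.1% of all genes.

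How the genes stood after 14 d of reloading was asked with RL14 against HU and against RL7, again averaged over 4 drinks. These comparisons share libraries with RL7 against HU and are not independent of it. Against HU, 8 of 37 genes were called, 21.6% against 29.7% of all genes (16.4% higher and 13.3% lower): 6 mitochondrial genes rose, as did Wars, and Hars fell. The log2 fold changes were 0.84 ± 0.15 for Lars2 (adjusted p = 3.66e-05), 0.56 ± 0.11 for Vars2 (adjusted p = 1.40e-04) and 0.68 ± 0.15 for Pars2 (adjusted p = 5.25e-04). Cars2 and Aars2 followed with 0.28 and 0.26, Wars had 0.25 (adjusted p = 0.0159), and Hars -0.20 (adjusted p = 0.0146). The calls of Aars2 and Wars were lost in 11 and 2 of the 32 fits that leave out 1 library. Of the 13 interferon genes 5 rose and 0 fell, with a summed level of 30.8 to 139 CPM in RL14 libraries, against 22.4 to 52.8 CPM in HU libraries. Of the cell markers, 5 of 6 for endothelium and 4 of 6 for fibroblasts rose and 2 of 4 for red blood cells fell, and the fold changes of the 37 genes correlated with GC content (r = 0.41, against 0.25 over all genes). Endothelium markers summed to 169.9 to 263 CPM in RL14 libraries, against 134 to 217 CPM in HU libraries, fibroblast markers to 255 to 717 CPM, against 248 to 503 CPM, and red blood cell markers to 2.59 to 61.1 CPM, against 6.15 to 166 CPM. Of 8 muscle fibre markers 2 rose and 1 fell, and of 4 satellite cell markers 1 rose and 1 fell. The part of these measures in the result was not tested.

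Against RL7, 8 of 37 genes were called, 21.6% against 13.5% of all genes (7.35% higher and 6.13% lower). The mitochondrial Sars2 fell by 0.41 (SE 0.10, adjusted p = 0.00511), with lowest, median and highest levels of 3.34, 5.17 and 9.72 CPM in RL14 libraries, against 4.52, 7.10 and 8.72 CPM in RL7 libraries. The ranges overlapped widely, and the highest library of both groups was an RL14 one. Tars2 and Aars2 also fell, by 0.19 and 0.27, and so did the cytosolic Qars, by 0.14. Eprs rose by 0.25 (SE 0.07, adjusted p = 0.0170), Nars by 0.20 and Wars2 by 0.22. The call of Aars2 was lost in 24 of the 32 fits that leave out 1 library, that of Qars in 10 and that of Nars in 5. The medians were -0.11 for the mitochondrial and 0.06 for the cytosolic genes. Of the cell markers, 6 of 8 for macrophages fell, with a summed level of 17.3 to 98.9 CPM in RL14 libraries, against 41.1 to 216 CPM in RL7 libraries, and 3 of 6 for fibroblasts fell, at 255 to 717 CPM in RL14 libraries, against 367 to 683 CPM in RL7 libraries. Of 8 muscle fibre markers 2 rose and 1 fell. Of 6 endothelium markers 1 fell, as did 1 of 5 for adipocytes and 2 of 13 interferon genes. The fold changes of the 37 genes correlated with GC content (r = -0.52, against -0.40 over all genes), and the part of these measures was not tested. The count was fragile: it was 17 without RL14_ML 1, 4 to 5 without any 1 of RL7_M 4, RL7_L 5, RL7_ML 1, RL14_W 5, RL14_M 6, RL14_L 4 or RL14_ML 6, 0 without the libraries with liver transcripts and 0 with the 5.8S covariate. With the 5.8S covariate no gene of all 16668 was called.

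The course on plain water was asked with 5 comparisons of 4 libraries each, and edgeR called 0 of 37 genes in every one. HU_W against AMB_W called 2.78% of all genes, and 3 of the 37 had an unadjusted p under 0.05 (13.7% of all genes); DESeq2 called 0 and voom 1 (8.33% of all genes). All 17 mitochondrial log2 fold changes were negative, from -0.38 to -0.02 with a median of -0.17, and the median of all genes was -0.01. Of the cytosolic genes 9 were positive and 11 negative, with a median of -0.03. Tars2 had 13.1, 12.6, 13.1 and 11.8 CPM in HU_W, against 13.5, 16.02, 14.7 and 17.01 CPM in AMB_W, with no overlap (log2 fold change -0.27 ± 0.11, adjusted p = 0.210). It was 1 of 4 genes of the 37 with no overlap here. Of the other cell markers, 4 of 4 for red blood cells rose and 2 of 6 for fibroblasts fell in HU_W against AMB_W. Of the ATF4 list 4 of 21 genes rose and 0 fell.

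RL7_W against HU_W shares HU_W with the comparison above. Of the ATF4 list 3 of 21 genes fell and 0 rose, where 4.88% of all genes were called. Without HU_W 1, 3 genes of the 37 were called, and with the GC correction 1 was. RL7_W against AMB_W called 0% of all genes and 0 of the 37 in edgeR, DESeq2 and voom, with 0 at an unadjusted p under 0.05 (8.05% of all genes). The log2 fold changes ranged from -0.24 to 0.33.

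After 14 d on water, RL14_W against AMB_W called 0.174% of all genes and 0 of the 37 in edgeR and DESeq2, and 9 in voom (17.9% of all genes); 10 had an unadjusted p under 0.05 (17.9% of all genes). The smallest p-values belonged to cytosolic enzymes. Mars, for methionine, had 29.4, 33.2, 32.4 and 29.8 CPM in RL14_W, against 23.4, 24.8, 23.5 and 19.7 CPM in AMB_W. The groups did not overlap, and the log2 fold change of 0.45 ± 0.13 did not pass (adjusted p = 0.0961). Vars and Yars, for valine and tyrosine, had log2 fold changes of 0.60 ± 0.19 and 0.35 ± 0.12 (adjusted p = 0.116 and 0.129), also with no overlap. Of the 37 genes, 10 did not overlap between RL14_W and AMB_W. How often this held over all genes was not counted. Technical measures differed too: the 5.8S gene averaged 0.718 CPM in RL14_W and 11.3 CPM in AMB_W, genes of the mitochondrial genome took 8.31% to 11.7% of counts in RL14_W, against 14.9% to 17.9% in AMB_W, and fold changes correlated with GC content (r = 0.66 over the 37 genes, 0.38 over all genes). With the GC correction the log2 fold changes were 0.34 for Mars, 0.20 for Vars and 0.26 for Yars, and with the 5.8S covariate 0.28, 0.29 and 0.41; the part of these measures was not tested further. RL14_W against RL7_W called 0.036% of all genes and 0 of the 37, with 5 at an unadjusted p under 0.05 (11.4% of all genes), led by Mars at 0.52 ± 0.13 (adjusted p = 0.190); DESeq2 called 0 and voom 6 (8.22% of all genes). Of the ATF4 list, which holds Atf4 itself, 2 of 21 genes rose in RL14_W against AMB_W, Eif4ebp1 (0.96, adjusted p = 0.0442) and Atf4 (0.59, adjusted p = 0.0442), with a median of 0.45. In RL14_W against RL7_W 1 of the 21 rose.

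What the drinks did was asked with each drink against water at the same time, 9 comparisons. At unloading edgeR called 0 of the 37 genes with each drink, against 0% of all genes with metformin, 0.006% with leucine and 0.048% with both, and 0, 3 and 3 of the 37 had an unadjusted p under 0.05 (3.88%, 2.99% and 6.23% of all genes). At 7 d of reloading it also called 0 with each drink, against 0.138%, 0.078% and 0.006% of all genes, and 5, 5 and 7 of the 37 had an unadjusted p under 0.05 (13.7%, 9.01% and 9.1% of all genes). DESeq2 called 0 in these 6 comparisons, and voom called 2 genes in RL7_ML against RL7_W (3.82% of all genes) and 0 in the other 5. Genes were called at 14 d of reloading, in 2 comparisons that share RL14_W.

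RL14_M against RL14_W called 3 of 37 genes, 8.11% against 5.12% of all genes, all cytosolic and all lower with metformin (3.58% of all genes fell). Yars, for tyrosine (ENSMUSG00000028811, chromosome 4, 129189760 to 129219607), had 17.9, 18.9, 15.99 and 14.2 CPM in RL14_M, against 23.3, 22.7, 25.5 and 22.9 CPM in RL14_W. Every RL14_M library lay below every RL14_W library, and the level was 1.41-fold lower (log2 fold change -0.49 ± 0.12, adjusted p = 0.0164). The call was lost without RL14_W 3, RL14_W 4 or RL14_M 6 (adjusted p up to 0.123).

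Vars, for valine (ENSMUSG00000007029, chromosome 17, 35000987 to 35016322), had 18.5, 16.8, 15.99 and 14.2 CPM in RL14_M, against 27.4, 27.4, 26.96 and 23.4 CPM in RL14_W. The groups did not overlap, and Vars was 1.604-fold lower (log2 fold change -0.68 ± 0.19, adjusted p = 0.0321). Farsa, a subunit of the phenylalanine enzyme, had 8.22, 9.28, 10.3 and 7.26 CPM in RL14_M, against 10.7, 13.4, 13.4 and 11.2 CPM in RL14_W, again with no overlap (log2 fold change -0.47 ± 0.14, adjusted p = 0.0356). Its partner subunit Farsb was not called (log2 fold change 0.12, adjusted p = 0.484). The call of Vars was lost without any 1 of 7 of the 8 libraries (all but RL14_W 5), and that of Farsa without RL14_W 3, RL14_W 4, RL14_M 1, RL14_M 2 or RL14_M 6.

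**Figure D4:**
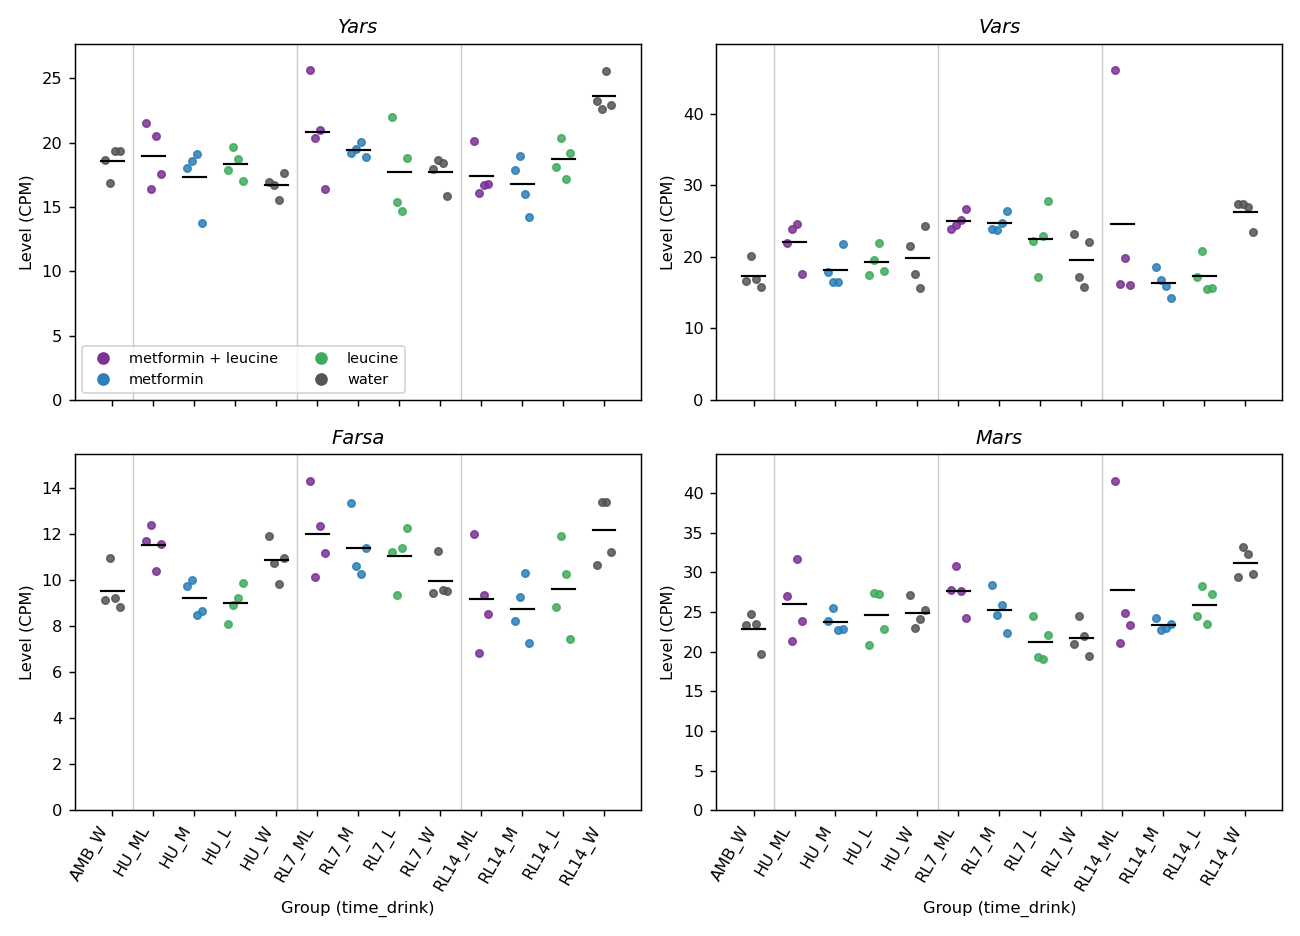
CPM of Yars, Vars, Farsa and Mars in each library (points) by group, with group means as bars. For Yars the 4 RL14_W libraries lie at 22.7 to 25.5 CPM and the other 3 groups of that time at 14.2 to 20.3 CPM, and for Vars and Mars 1 RL14_ML library stands at 46.1 and 41.6 CPM.

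Mars and Cars (methionine and cysteine) came close, with log2 fold changes of -0.41 ± 0.13 and -0.31 ± 0.10 (adjusted p = 0.0527 and 0.0566) and no overlap between RL14_M and RL14_W. In all, 10 of the 37 genes did not overlap between these groups. Atf4 and its target Eif4ebp1 fell in the same comparison. Atf4 averaged 40.4 ± 5.49 CPM in RL14_M and 62.6 ± 5.47 CPM in RL14_W (SD, n = 4 each; log2 fold change -0.63, adjusted p = 0.00584), and Eif4ebp1 11.3 ± 1.25 CPM in RL14_M and 19.9 ± 2.61 CPM in RL14_W (-0.82, adjusted p = 0.0202). These were the 2 genes called of 21 on the ATF4 list, which holds Atf4 itself, where 3.58% of all genes fell. Of the list 0 rose, and the median was -0.29.

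RL14_W stood apart from the other groups of that time in technical measures. The 5.8S gene averaged 18.4 CPM in RL14_M and 0.718 CPM in RL14_W, and genes of the mitochondrial genome took 17.5% to 27.5% of counts in RL14_M, against 8.31% to 11.7% in RL14_W. In both measures RL14_W lay near RL7_M, RL7_L and RL7_ML. Their 5.8S means were 0.904, 0.771 and 1.76 CPM, and their mean mitochondrial shares 7.78%, 8.44% and 8.89%. In the order of library numbers in the titles, RL14_W comes directly after these groups and directly before RL14_M. Whether this order plays a part was not tested. Fold changes of the 37 genes correlated with GC content (r = -0.72, against -0.36 over all genes), and 4 of 4 red blood cell markers rose, with a summed level of 9.11 to 61.1 CPM in RL14_M, against 2.59 to 4.17 CPM in RL14_W. Of the other markers, 1 of 8 fibre genes rose and 2 fell, 1 of 4 satellite cell genes fell, and none of the macrophage, endothelium, fibroblast, adipocyte, liver and interferon genes passed. With the GC correction Yars was called (log2 fold change -0.40, adjusted p = 0.0305) and Vars and Farsa were not (-0.30 and -0.25, adjusted p = 0.121 and 0.259). With the 5.8S covariate none of the 3 was called (adjusted p = 0.999), and the log2 fold change of Yars was -0.56. The 5.8S level was 11.6 to 23.04 CPM in RL14_M and 0.294 to 0.998 CPM in RL14_W. With no overlap, that fit cannot tell this level apart from the groups. The part of these measures in the difference was not tested further.

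Leucine alone at 14 d called 0 of 37 in edgeR and DESeq2, against 0.294% of all genes, and 3 in voom (8.17% of all genes); 8 had an unadjusted p under 0.05 (16.7% of all genes). Yars had 18.1, 20.3, 17.2 and 19.2 CPM in RL14_L, all below RL14_W (log2 fold change -0.33 ± 0.12, adjusted p = 0.150), and Vars did not pass either (-0.60 ± 0.19, adjusted p = 0.120). With both drinks, Yars had 20.1, 16.1, 16.7 and 16.8 CPM in RL14_ML, also below all of RL14_W (log2 fold change -0.44 ± 0.12, adjusted p = 0.0590). Vars had 46.1, 16.2, 19.8 and 16.1 CPM in RL14_ML, where 1 library was high and 3 lay below RL14_W (log2 fold change -0.10 ± 0.19, adjusted p = 0.901).

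RL14_ML against RL14_W called 1 of 37 genes, against 0.714% of all genes (0.372% higher). It was Lars2, the mitochondrial leucine enzyme (ENSMUSG00000035202, chromosome 9, 123366927 to 123462666), with 984, 368, 240 and 1018 CPM in RL14_ML, against 354, 260, 313 and 191 CPM in RL14_W. The first and last of the RL14_ML libraries, RL14_ML 1 and RL14_ML 6, were far above all others, and the other 2 lay within or just above the RL14_W range. The log2 fold change was 1.22 ± 0.30 (adjusted p = 0.0391). It was 0.12 (adjusted p = 0.863) without RL14_ML 1, RL14_ML 6 and RL7_M 4, and 0.31 (adjusted p = 0.485) in voom with quality weights. Leaving out RL14_W 3, RL14_W 4, RL14_W 5 or RL14_ML 6 alone also ended the call.

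The level of Lars2 ran beside that of a ribosomal RNA gene. CT010467.1, which GENCODE annotates as ribosomal RNA and which was chosen here after its values were seen, had 25068.6 CPM in RL14_ML 1 and 36593.9 CPM in RL14_ML 6, where Lars2 was highest. The level of Lars2 was 2.78% to 7.48% of the level of CT010467.1 in all 52 libraries, while CT010467.1 itself ranged from 2274.8 to 36593.9 CPM. In RL14_ML that share was 3.93%, 4.65%, 4.92% and 2.78%, and in RL14_W 6.51% to 7.48%. The rise of Lars2 in RL7 and RL14 against HU had CT010467.1 beside it too, at a mean of 3975 to 4980 CPM in the RL7 groups and 3937 to 18610 CPM in the RL14 groups, against 2504 to 4649 CPM in the HU groups. What part of the Lars2 counts came from ribosomal RNA was not tested.

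**Figure D5:**
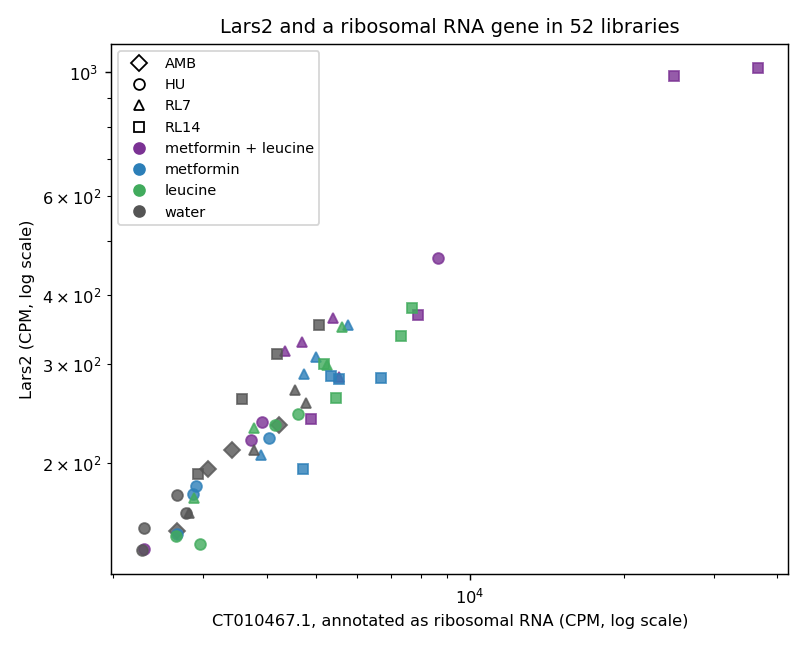
Lars2 (y axis, CPM) against CT010467.1, a gene annotated as ribosomal RNA (x axis, CPM), both on log scales, in 52 libraries; shapes give the time and colours the drink. The points lie along 1 band, and the 2 at the upper right are RL14_ML 6 with 1018 CPM of Lars2 and RL14_ML 1 with 984 CPM.

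Averaged over the 3 times, the 5 comparisons of drinks called 0 of the 37 genes in edgeR. ML against W called 0.036% of all genes, M against W 0.048% and L against W 0.072%, and 3, 1 and 0 of the 37 had an unadjusted p under 0.05 (5.73%, 5.08% and 4.87% of all genes). ML against M called 0.18% of all genes and ML against L 0.024%, and 7 and 9 of the 37 had an unadjusted p under 0.05 (12.6% and 10.3% of all genes). DESeq2 called 1 in ML against W (0.096% of all genes) and 1 in ML against M (0.498%), and voom 0. The smallest adjusted p was 0.0525, for Lars2 in ML against W (log2 fold change 0.83), which was 0.46 (adjusted p = 0.591) without RL14_ML 1, RL14_ML 6 and RL7_M 4. Whether the effect of a drink differed between the 3 times was asked with 6 interaction terms, which called 0 of 37 genes in edgeR, against 0.93% of all genes, with 11 at an unadjusted p under 0.05 (16.4% of all genes). DESeq2 called 1 (3.61% of all genes) and voom 9 (23.01%). The smallest adjusted p was 0.0749, for Yars.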

How the data were processed

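Total RNA of gastrocnemius was sequenced from stranded libraries depleted of ribosomal RNA, per the labels. The authors deposited raw counts per Ensembl gene with no normalization, made with GRCm38, STAR 2.7.3a and featureCounts 1.6.3 per the submitters' processing notes, which also name DESeq2 1.30.0. The strand setting and the annotation release are not given in the sources used here. GENCODE vM21 named 55141 of 55487 genes, and all columns of the table belong to samples of the series. The 52 libraries held 15605044 to 32492548 counts.

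One model over all 13 groups was fitted with edgeR 4.0.16 in R 4.3.3 (filterByExpr with a minimum count of 10, 16668 genes, TMM factors, robust quasi-likelihood F tests with 39 residual degrees of freedom, Benjamini-Hochberg adjustment over all genes, adjusted p under 0.05). The shared model takes the spread from all 52 libraries. Adjusted p-values in the text come from this fit unless another is named. Folds are fitted ratios, and levels are CPM. The steps were tested on simulated data.

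Alternatives were RLE size factors, no filter, DESeq2 1.42.0, limma 3.58.1 voom with quality weights, a replicate block, each library left out, the libraries that stood apart left out, the 5.8S level as a covariate (log2 with 0.1 CPM added) and, chosen after seeing the data, lowess offsets for transcript GC content (span 0.3; 80.2% of tested genes have a GC value). GC content was the mean over the protein-coding transcripts of a gene. The fit with these offsets tests and adjusts over genes with a GC value only. Correlations with GC content given over all genes use these genes too. None of 78 pairs of replicates agreed within sampling noise (lowest chi-square per degree of freedom 6.82). The members and gene lists were chosen with earlier results of these data known, and the genes named followed a rule. Synthetases called in a comparison or over the 13 groups were given with their libraries, at most 6 per comparison by smallest p, with the highest and lowest by level. From each list up to 2 higher and 2 lower called genes were named, plus Atf4, Sesn2, Ddit4, Eif4ebp1 and Tarsl2. One synthetase is counted in the totals and is not reported by itself here. Eprs, Wars and Nars in RL7 against HU and the drink-by-drink values were added after their values were seen.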

Additional observations from a re-analysis of the deposited data

Results flagged for a closer look

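In groups of 4 libraries, 13 synthetase genes named in the text were searched for a library whose gap to its nearest neighbour took more of the group's range than Dixon's critical value allows. That made 169 searches, of which chance marks about 1 in 20, and 8 were marked. Vars had 46.06 CPM in RL14_ML 1, where the other 3 libraries lay at 16.13 to 19.83 CPM, and this high library stood beside 3 below RL14_W. Vars also had 23.44 CPM in RL14_W 5, below the 26.96 to 27.4 CPM of the rest of its group. Eprs had 136.4 CPM in RL7_M 4 and Nars 46.1 CPM in the same library, where the rest of the group had 215.2 to 220.1 CPM of Eprs and 61.61 to 64.62 CPM of Nars. RL7_M 4 was also the library with the highest adipocyte markers, and the fits without it stand in the next section. Lars2 had 195.2 CPM in RL14_M 6, where the others had 282.9 to 286.6 CPM. Pars2 had 1.845 CPM in AMB_W 5, where the others had 1.052 to 1.121 CPM. Tars2 had 13.8 CPM in HU_L 1, where the others had 11.6 to 11.93 CPM. Farsa had 11.28 CPM in RL7_W 2, where the others had 9.444 to 9.57 CPM.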

How the results depend on the processing

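The counts of synthetase genes called were 20 over the 13 groups, 21 in RL7 against HU, 30 over the 3 drinks in RL7 against HU, 8 in RL14 against HU, 8 in RL14 against RL7, 4 over the 9 comparisons of a drink with water, and 0 on water alone, in the averaged drinks and in the interaction. Without the filter on low counts these were 12 over the 13 groups, 15 over the 3 drinks, 5 in RL14 against HU, 2 in RL14 against RL7 and 0 of the drinks against water. DESeq2 called 1 gene in the interaction and 2 in the averaged drinks. Voom called 1 in HU_W against AMB_W, 5 in RL7_W against HU_W, 9 in RL14_W against AMB_W, 6 in RL14_W against RL7_W, 16 in RL14 against RL7, 24 for the drinks and 9 in the interaction. Without the libraries with liver transcripts the counts were 6 over the groups, 13 over the 3 drinks, 5 in RL14 against HU, 0 in RL14 against RL7 and 1 for the drinks. Without RL14_ML 1, RL14_ML 6 and RL7_M 4 they were 2 in RL7_W against HU_W, 5 in RL14_W against AMB_W, 3 in RL14_W against RL7_W, 5 in RL14 against HU, 16 for the drinks and 7 in the interaction. With the 5.8S covariate they were 4 over the groups, 1 in RL7 against HU, 1 in RL7_W against HU_W, 0 over the 3 drinks, 0 in RL14 against RL7 and 0 for the drinks. The GC correction gave 1 in RL7_W against HU_W. The cause of these moves was not tested.

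Leaving out 1 library at a time gave 15 to 24 over the groups, 19 to 22 in RL7 against HU, 22 to 30 over the 3 drinks, 6 to 14 in RL14 against HU (14 without RL14_ML 6), 4 to 17 in RL14 against RL7 (17 without RL14_ML 1), 0 to 3 in RL7_W against HU_W (3 without HU_W 1), 0 to 8 in the interaction (8 without RL14_ML 1) and 0 to 2 in the averaged drinks (2 without RL14_ML 3 or RL14_ML 4, 1 without HU_ML 6). For the drinks against water it gave 0 to 13: 13 without RL14_ML 1, 0 without RL14_W 3 or RL14_W 4, 1 without RL14_M 6, and 2 without RL14_M 1 or RL14_M 2. Samples share only a replicate number: over 43 same-numbered pairs the median correlation of their deviations was -0.0185, and 9 exceeded 0.1. The replicate block gave 2 in RL7_W against HU_W, 1 for the drinks, 1 in the interaction, 19 over the groups, 22 in RL7 against HU, 10 in RL14 against HU and 7 in RL14 against RL7. Among 2462 log2 fold changes of single genes under these alternatives, no called value changed sign, 2319 kept their side of it, 105 lost the call and 38 gained it. Pars2 rests on 5 to 53 counts per library, which limits its precision.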
